A study of Homo sapiens with 18 samples.

Results

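H2AK119ub, histone H2A carrying a single ubiquitin on a lysine of its C-terminal tail, was mapped across the autosomes of MDA-MB-231 cells. This line comes from a triple-negative breast cancer and is often used as a model of mesenchymal, invasive disease. The landscape comprised all deposited H2AK119ub peaks on chromosomes 1 to 22, which were 233024 of the 234493 peaks in the list and of the 778196 peaks in the series' 6 lists. The study asks how the histone demethylase KDM2B acts on amino acid metabolism together with MYC and ATF4. Its chromatin immunoprecipitation and sequencing (ChIP-seq) set comprised 18 libraries in 9 groups of 2.

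The H2AK119ub group held 2 libraries of parental, untreated cells, grown in medium with nonessential amino acids, glutamine and serum. The comparison lists were those of H3K27me3, H3K4me3, KDM2B and MYC in the same parental cells and of H3K27ac in cells labelled EV, an abbreviation the labels do not spell out. The ATF4 libraries were not analysed here. Each target had 1 list for both of its libraries, so no value below has a replicate error. All statements describe these lists, with no test between groups. Nothing in the labels tells if the 2 libraries were made from separate cultures. The lists hold no read counts, so the depth is unknown. Each interval is a 95% Wilson interval, which takes in counting error alone and treats genes as independent, although genes can share peaks.

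H2AK119ub is written by Polycomb repressive complex 1 (PRC1), through RING1 or RNF2. The form called ncPRC1.1 holds KDM2B, whose zinc finger binds unmethylated CpG, together with PCGF1 and BCOR. Canonical PRC1 holds a CBX protein that reads H3K27me3, the mark of PRC2, so that both marks often lie together over silent developmental genes. The deubiquitinase BAP1, with an ASXL partner, removes H2AK119ub across the genome. H3K4me3 marks promoters that are active or poised, and H3K27ac marks active promoters and enhancers.

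Promoters of 4 marked genes show how unlike in sequence the covered sites were. Each is a RefSeq window (GRCh38.p14) from 250 bases before to 50 after a gene start that lay wholly inside H2AK119ub peaks, printed 5′ to 3′ on the gene's strand with every CpG in capitals. They were chosen after their values were seen, to span the range of CpG content and of companion marks. NEUROG1, a factor that starts neuronal fate, lies at chr5:135535915-135536214 on the minus strand. WNT1, a secreted growth factor of development, lies at chr12:48978072-48978371 on the plus strand. GATA2, a blood and endothelial transcription factor, lies at chr3:128493152-128493451 on the minus strand. KRT71, a keratin of the hair follicle, lies at chr12:52553096-52553395 on the minus strand.
NEUROG1: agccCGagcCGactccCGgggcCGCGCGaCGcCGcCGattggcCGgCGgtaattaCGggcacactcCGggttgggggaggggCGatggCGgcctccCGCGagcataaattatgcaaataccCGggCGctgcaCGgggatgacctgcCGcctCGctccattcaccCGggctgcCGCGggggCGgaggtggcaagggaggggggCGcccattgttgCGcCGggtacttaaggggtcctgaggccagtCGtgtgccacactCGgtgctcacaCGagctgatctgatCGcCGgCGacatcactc
WNT1: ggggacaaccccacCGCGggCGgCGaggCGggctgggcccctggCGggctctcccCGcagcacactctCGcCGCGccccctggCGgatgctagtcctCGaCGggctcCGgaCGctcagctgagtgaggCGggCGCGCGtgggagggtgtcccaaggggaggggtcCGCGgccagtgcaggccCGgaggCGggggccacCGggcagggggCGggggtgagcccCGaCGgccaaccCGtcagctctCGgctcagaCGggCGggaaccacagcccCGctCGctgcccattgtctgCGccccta
GATA2: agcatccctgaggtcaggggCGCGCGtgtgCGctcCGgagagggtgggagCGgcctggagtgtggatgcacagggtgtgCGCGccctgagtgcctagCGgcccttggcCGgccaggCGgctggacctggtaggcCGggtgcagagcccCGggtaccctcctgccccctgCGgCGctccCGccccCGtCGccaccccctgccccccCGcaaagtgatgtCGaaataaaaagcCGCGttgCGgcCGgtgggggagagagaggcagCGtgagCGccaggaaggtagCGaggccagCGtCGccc
KRT71: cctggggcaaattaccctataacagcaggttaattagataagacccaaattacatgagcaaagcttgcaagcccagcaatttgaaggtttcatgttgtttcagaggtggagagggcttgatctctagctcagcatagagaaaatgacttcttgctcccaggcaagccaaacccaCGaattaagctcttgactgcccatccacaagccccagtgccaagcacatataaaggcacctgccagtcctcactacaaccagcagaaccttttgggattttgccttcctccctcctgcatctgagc
The NEUROG1 window held 35 CpG and an H3K27me3 peak, with no peak of H3K4me3, H3K27ac, KDM2B or MYC. The WNT1 window held 34 CpG with H3K4me3, H3K27ac, KDM2B and MYC peaks and no H3K27me3. GATA2, at 29 CpG, carried H3K4me3 and MYC without the other 3. KRT71 had 1 CpG and carried H3K27me3 only. The median over all 15101 promoter windows was 22 CpG.

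The labelled cell type was checked through H3K4me3 and H3K27ac within 1 kb of gene ends. All 7 autosomal mesenchymal and basal markers (VIM, CD44, AXL, ZEB1, FN1, CAV1 and EGFR) carried both. H2AK119ub covered 0% to 3.15% of their records. Other genes of this kind, listed below, were not all alike. TWIST1 had neither H3K4me3 nor H3K27ac in its record and 7.89% H2AK119ub, and TGFBI was covered over 19.7%. Keratins were not among these markers and are described below. Of 8 luminal and epithelial markers, 5 had H3K4me3 and 3 had H3K27ac. The 3 were FOXA1, GATA3 and EPCAM, with H3K27ac over 86.7%, 44.9% and 4.51% of the record, and each also had H3K4me3. By these marks the check did not set all luminal and epithelial markers apart from the mesenchymal and basal ones. These 8 were also little covered by H2AK119ub, at 0% to 10.6% with a median of 1.14%. They do not stand for all genes of this kind, listed below. TFF3, OVOL1 and ELF3 were covered over 92.7%, 87.9% and 87.1%. KRT18 and CLDN4 had no H2AK119ub and had H3K27ac throughout. ESR1, PGR, ESRP1, GRHL2 and CDH1 lacked H3K27ac within 1 kb of their ends. Elsewhere in the record it covered 9.62% of CDH1, 2.73% of ESR1 and 1.43% of GRHL2. None of 4 haematopoietic markers had H3K27ac near an end, and 1 of 3 hepatocyte markers did, APOA1. H3K27ac covered 7.70% of the PTPRC record away from its ends. SPI1 and CD3E, genes of blood cells, were 29.3% and 11.8% covered by H2AK119ub. ALB, TTR and PTPRC, also genes of other tissues, had no H2AK119ub at all.

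The peaks covered 167.4 Mb, or 5.83% of a 2874 Mb autosomal span. H3K27me3 covered 353.9 Mb (12.3%), H3K4me3 128.8 Mb, H3K27ac 134.6 Mb, MYC 46.5 Mb and KDM2B 10.98 Mb. H2AK119ub peaks had a median width of 405 bp (middle 50% of peaks 265 to 751 bp), between that of KDM2B peaks (386 bp) and H3K27me3 peaks (525 bp). Their deposited fold over background had a median of 2.46 and a maximum of 7.95. The peaks lay close together: the median gap to the next was 891 bp, and 74.7% of gaps were at most 3 kb. Peaks under 500 bp were 59.8% of the list but held 25.0% of the covered bp. The 2295 peaks of at least 5 kb, 0.985% of the list, held 10.4%. The widest, 38.6 kb, ran over C14orf180 and TMEM179 on chromosome 14. The next lay over MRPL23 (34.5 kb), between genes on chromosome 20 (31.4 kb) and at the start of RXRA (28.2 kb). The highest fold stood inside ARHGEF16 at chr1:3475398-3477148, and a peak of fold 7.02 followed nearby in MEGF6. The mucin gene MUC4 held a peak of fold 7.33, and the phosphodiesterase gene PDE9A one of 7.05. These folds are the authors' values and were used only to describe, rank and filter peaks within the list.

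H3K27me3 was the mark most shared with H2AK119ub. It lay over 62.2% of H2AK119ub bp, 5.05 times its 12.3% share of the span. In the other direction 29.4% of H3K27me3 bp carried H2AK119ub. The overlap was 11.9% with H3K4me3 (4.48% of the span), 7.26% with H3K27ac (4.68%), 4.79% with MYC (1.62%) and 1.22% with KDM2B (0.382%). By peaks, 61.3% met H3K27me3 without H3K4me3 or H3K27ac, and 12.5% met H3K4me3 or H3K27ac without H3K27me3. Another 2.93% met both kinds, and these were the widest, at a median of 911 bp. The 52447 peaks (22.5%) that met no peak of any other list had a median width of 339 bp. From the lowest to the highest of 10 equal classes of fold, the share that met H3K27me3 went from 56.4% to 74.4% and H3K4me3 from 9.09% to 22.8%. KDM2B did not rise steadily: it was 2.67% in the lowest class, 1.40% in the second, 2.63% in the ninth and 5.91% in the highest. Median width went from 281 to 1378 bp over the same classes, and a wider peak meets more peaks of any list.

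Among 19126 protein-coding genes, 11188 had H2AK119ub over at least 1 bp of the gene record, the span from the first to the last base of its transcripts (58.5%, interval 57.8% to 59.2%). At least 50% of the record was covered in 2610 genes (13.6%), at least 90% in 377, and all of it in 148, the longest of which was 10.8 kb. The median gene was covered over 1.22% and the mean over 16.4%. Gene bodies held 55.1% of H2AK119ub bp and 42.1% of the span. Short genes were covered over most of their length more often: 28.4% of records of 2 to 5 kb and 2.84% of those over 200 kb reached 50% coverage. Records over 200 kb met a peak more often (68.6%) than those of 2 kb or less (44.1%).

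The gene with most H2AK119ub was RBFOX3, the neuronal splicing factor known as NeuN, with 477.9 kb of 576 kb covered (82.9%) by 172 peaks. H3K27me3 covered 88.7% of it and H3K4me3 1.75%. CDH4, the retinal cadherin, followed with 393.4 kb (57.1%), but H3K27me3 covered 7.39% of it. SHANK2, a scaffold of the postsynaptic density, had 364.2 kb, and FSTL4 345.9 kb. CDH23, a cadherin of the tip links of hair cells, had 340.7 kb, and CACNA1C, a pore subunit of L-type calcium channels, 316.8 kb. GSE1 had 315.3 kb (62.2%) with H3K27me3 over only 0.318%. PRDM16, a regulator of brown fat, was covered over 83.1%, DSCAML1, an adhesion molecule of neurons, over 75.8% and CAMTA1, a calmodulin-binding activator, over 29.4% of its 984 kb. In 8 of these 10 genes H3K27me3 covered more of the record than H2AK119ub did, by least in SHANK2 (47.3% and 46.4%).

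Of genes of at least 20 kb, the kinesin gene KIF26A had the highest covered share, 97.6%. MYL3, a myosin light chain of heart and slow muscle, followed at 97.0%, SLC6A19, a neutral amino acid transporter of gut and kidney, at 96.8% and the semaphorin receptor gene PLXNB1 at 96.8%. In these 4 genes H3K27me3 covered 62.4% to 96.8%. FLRT1 (96.6%), PTP4A3 (96.3%) and RXRA (93.9%) had H3K27me3 over 1.48%, 7.25% and 0%. RXRA, the common partner of nuclear receptors, carried H3K27ac over 26.5%.

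The 2610 genes covered over at least 50% thus fell at both ends of H3K27me3 coverage. H3K27me3 covered at least 50% of the record in 1163 of them (44.6%) and under 10% in 1050 (40.2%), with 397 between. The 2 sets were alike in H2AK119ub, with medians of 72.4% and 68.5% of the record. They differed in the other marks, but these are not independent of H3K27me3, by which the sets were chosen. All genes are the only baseline given. A comparison with H3K27me3-poor genes that lack H2AK119ub was not made. H3K4me3 lay in 39.6% of the H3K27me3-rich and 87.9% of the H3K27me3-poor genes, against 77.1% of all genes. For H3K27ac the shares were 15.6% and 77.0% (all genes 71.2%), for KDM2B 13.8% and 64.6% (50.3%) and for MYC 34.4% and 81.8% (72.1%). The H3K27me3-poor genes lay in more crowded 1 Mb stretches, with a median of 28 genes against 19, and 48.9% of them lay within 5 Mb of a chromosome end against 20.3% (all genes 14.6%). Their promoter windows held a median of 28 CpG against 9. H2AK119ub reached the promoter window in 42.7% of the H3K27me3-poor genes with a window (n = 766) and in 81.9% of the H3K27me3-rich ones (n = 790).

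The position of the mark within these genes differed as well. Over genes of at least 10 kb cut in 20 equal parts, H2AK119ub covered 43.3% of the first part of the 287 H3K27me3-poor genes, 59.2% of the second and 74.0% of the 17th. H3K4me3 ran the other way, from 90.7% of the first part to 23.8% of the 17th. In the 321 H3K27me3-rich genes H2AK119ub covered 73.3% of the first part and 64.4% to 73.4% of every other. The H3K27me3-poor genes with most H2AK119ub, named after their values were seen, included MAD1L1 of the spindle checkpoint (213.5 kb, 51.2% of the record) and ZMIZ1, a coactivator (168.2 kb, 68.0%). They also included MACROD1 (152.6 kb, 91.1%), which contains the FLRT1 record, the H3K9 demethylase gene KDM4B (120.7 kb, 65.4%) and the collagen gene COL5A1 (116.7 kb, 57.5%). In ZMIZ1 H3K27ac covered 49.5% of the record.

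**Figure D1:**
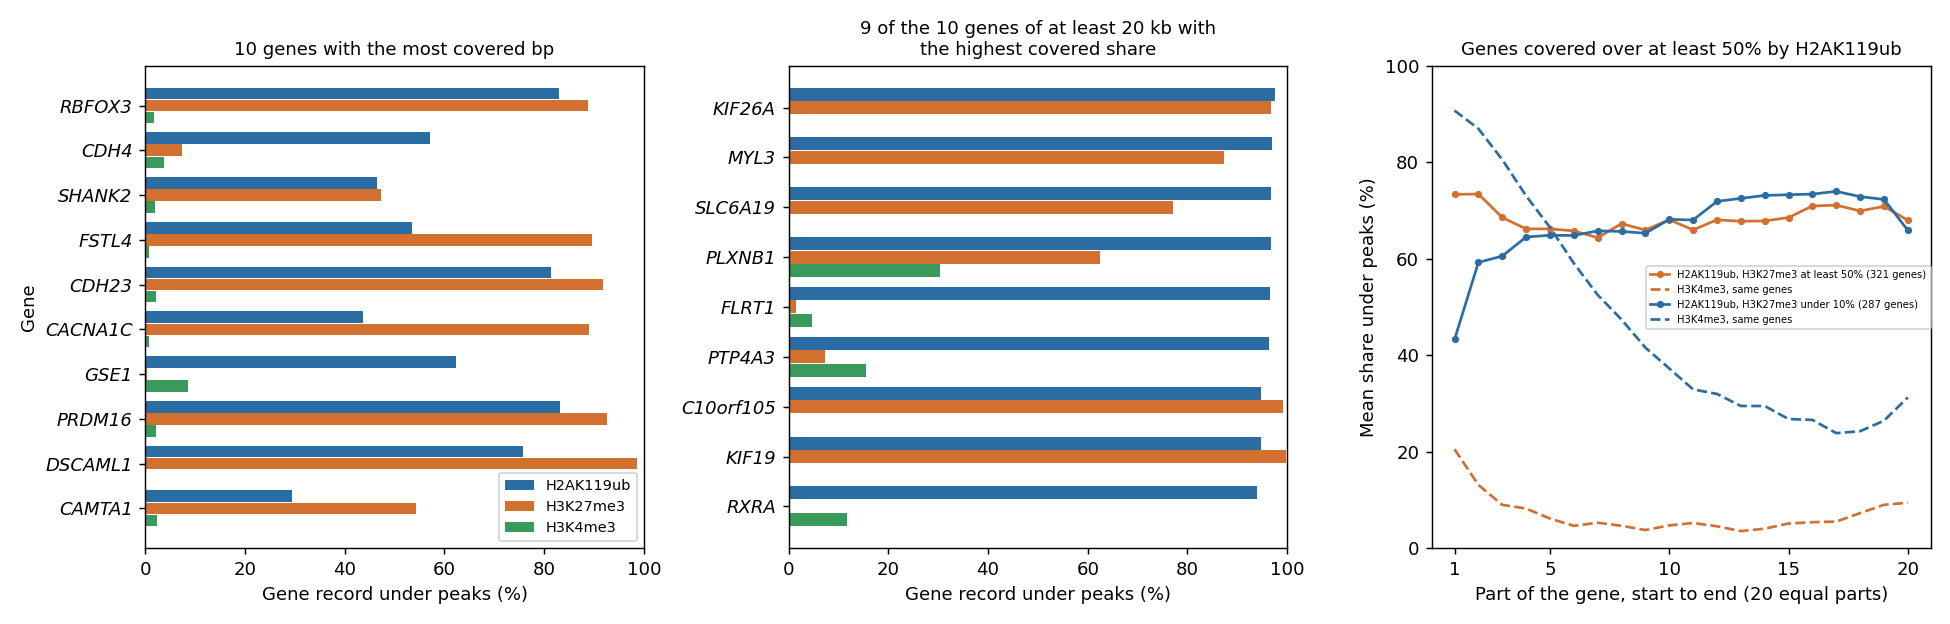
Left and middle: share of the gene record (%) under H2AK119ub, H3K27me3 and H3K4me3 peaks for the 10 genes with most covered bp and 9 of the 10 genes of at least 20 kb with the highest covered share; CDH4, GSE1, FLRT1, PTP4A3 and RXRA have H2AK119ub with little H3K27me3. Right: mean share of each of 20 equal parts of the gene under H2AK119ub (solid) and H3K4me3 (dashed) in genes covered over at least 50%, where the 287 H3K27me3-poor genes start at 43.3% and the 321 H3K27me3-rich genes at 73.3%.

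Between chromosomes the covered share differed 18.8 times. Chromosome 20 was highest at 17.5%, followed by 19 (16.2%), 17 (16.03%), 22 (12.7%) and 11 (10.2%). Chromosome 4 was lowest at 0.928%, after 13 (1.49%), 18 (2.45%) and 6 (2.95%). The order followed gene density, with Spearman's rho of 0.87 and Pearson's r of 0.78 over the 22 chromosomes. Chromosomes 20 and 1 departed from each other at like density: 8.35 genes per Mb with 17.5% covered against 8.28 with 7.42%. Chromosome 19 had 24.8 genes per Mb, the most of any, with less coverage than chromosome 20. Chromosome 4 was below chromosome 13 although it held more genes per Mb, 4.05 against 2.96. H3K27me3 covered 33.5% of chromosome 20, its highest share, and 2.57% of chromosome 4, its lowest. The share of H2AK119ub bp inside H3K27me3 was 74.7% on chromosome 20 and 42.1% on chromosome 19. The line is aneuploid, the lists do not give copy number, and no source used here names the control of the peak calling. A difference in coverage between chromosomes therefore cannot be told apart from one in DNA copies. The same holds for the chromosome parts, 1 Mb bins, chromosome ends and wide domains compared below.

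Within chromosome 20 the mark was gathered in the distal long arm. Mean coverage of 1 Mb bins in its 4 equal parts, from the short arm's end, was 3.97%, 5.49%, 22.2% and 38.5%, with 7.25, 5.31, 12.2 and 8.29 genes per bin. H3K27me3 was 11.5%, 23.4%, 44.3% and 54.1% in the same parts. The 4 parts of chromosome 19 were covered over 25.4%, 7.27%, 16.9% and 14.3%, with 31.7, 12.3, 19.9 and 33.6 genes per bin. The last of these parts had the most genes per bin but not the most H2AK119ub. On chromosome 1 the first such part was covered over 17.8% and the third over 7.18%, at 12.3 genes per bin in both. No such part of chromosome 4 exceeded 2.63%.

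**Figure D2:**
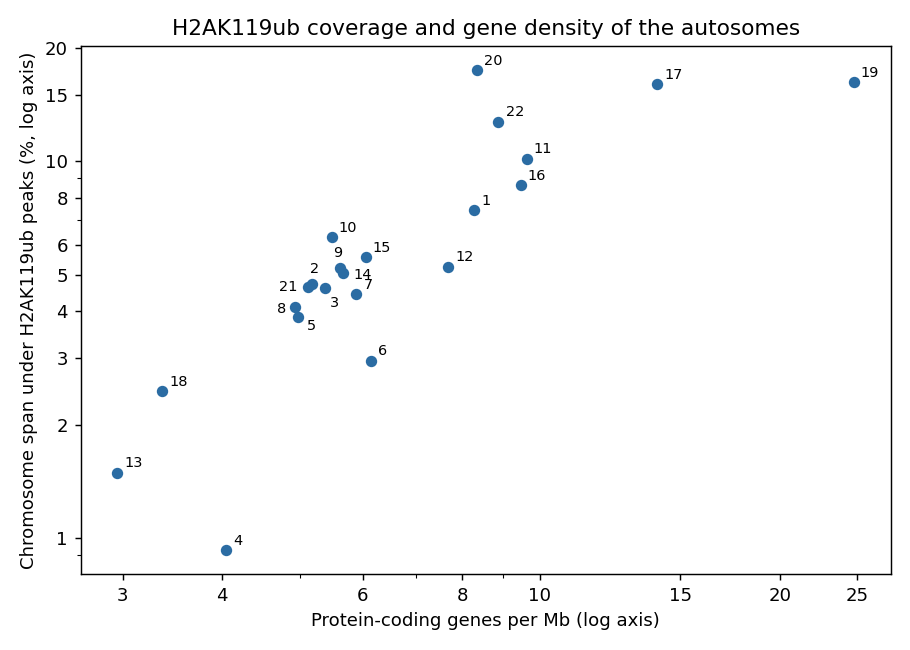
Percent of each autosome's span under H2AK119ub peaks against protein-coding genes per Mb, both on log axes, 1 point per chromosome with its number. Chromosome 20 (17.5%) lies above chromosomes of like gene density such as 1 (7.42%), and chromosome 4 (0.928%) lies lowest.

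Most of the mark lay in few of the 1 Mb bins. Of 2777 bins with a peak of any list, 437 (15.7%) had no H2AK119ub, the median was 0.715%, 295 (10.6%) were covered over at least 20%, and 33 over at least 50%. The 278 bins with most H2AK119ub held 54.8% of its bp and 23.2% of the genes. Coverage and gene density had a rho of 0.64 and an r of 0.50 across the 2777 bins. Within single chromosomes rho ran from 0.44 on chromosome 19 to 0.75 on chromosome 16, with a median of 0.63. Bins without a gene had a median coverage of 0.0187%, those of 7 to 10 genes per Mb 2.69%, those of 16 to 25 genes 15.6% and those above 25 genes 16.7%. The rise thus levelled off in the densest class, where H3K4me3 still rose from a median of 12.4% to 20.8% and H3K27me3 was 16.2% after 20.04%. The share of H2AK119ub bp inside H3K27me3 peaks was 74.3% in bins without genes, 77.3% at 1 to 3 genes per Mb, 60.4% at 11 to 15 and 40.6% above 25. Across bins the rho of H2AK119ub with H3K27me3 was 0.88 and with H3K4me3 0.67. Neighbouring bins were alike, with rho 0.80 at a distance of 1 Mb, 0.42 at 5 Mb and 0.18 at 20 Mb, so bins are not independent points.

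Coverage was also highest near chromosome ends. Bins up to 2.5 Mb from an end had a median of 18.97% (n = 131), those from 2.5 to 5 Mb 7.72%, those from 10 to 20 Mb 1.33% and those more than 40 Mb away 0.285% (n = 1151). The median number of genes in these classes was 8, 6, 4 and 4. At like gene density the bins within 5 Mb of an end were higher in every class. At 4 to 6 genes per Mb the medians were 9.21% near an end and 0.643% elsewhere, and above 25 genes they were 33.8% and 15.4%. In that densest class H3K27me3 was lower near the ends, with a median of 9.07% against 18.6%, and H3K4me3 was higher, 28.6% against 20.6%. H3K27me3 peaks held 47.4% of the H2AK119ub bp up to 2.5 Mb from an end and 69.3% at 20 to 40 Mb.

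**Figure D3:**
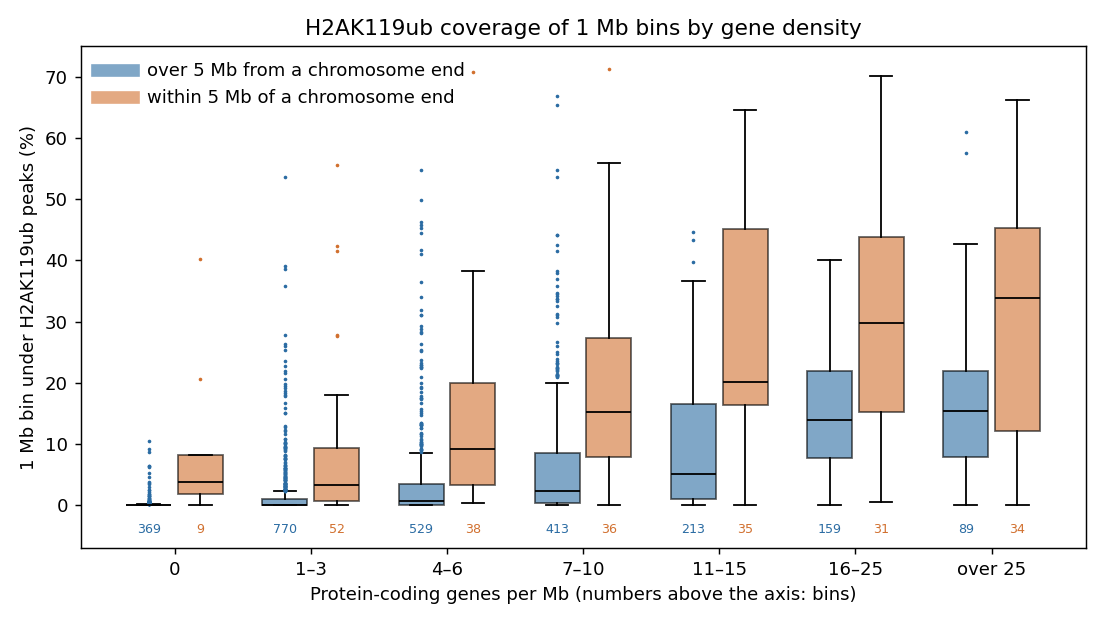
Percent of each 1 Mb bin under H2AK119ub peaks by its protein-coding genes per Mb, for bins within 5 Mb of a chromosome end and farther away (box: middle 50% of bins, line: median, whiskers: up to 1.5 box lengths, dots: bins beyond; the number of bins is under each box). Away from the ends medians rise with gene density throughout; near an end they go from 3.77% at 0 genes (9 bins) to 3.32% at 1 to 3 genes and rise from there. In each density class the bins near an end are higher, for example 33.8% against 15.4% above 25 genes per Mb.

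The most covered bin, 71.2%, was the stretch from 79 to 80 Mb of chromosome 17. It holds RBFOX3 and also CBX2 and CBX8, which encode CBX proteins of canonical PRC1. The bins from 141 to 142 and from 142 to 143 Mb of chromosome 8 followed at 70.7% and 70.04%. They hold PTP4A3, the neuronal early gene ARC and the steroid hydroxylase genes CYP11B1 and CYP11B2. On chromosome 20 the bin from 57 to 58 Mb, with the growth factor gene BMP7 and the gluconeogenic enzyme gene PCK1, was covered over 66.8%. The bin from 63 to 64 Mb, with 31 genes including the nicotinic receptor gene CHRNA4, was covered over 66.2%. H3K27me3 covered 62.2% to 77.4% of the first 4 and 37.2% of the last. At the other end, 254 bins with 757 genes had no H2AK119ub. The 5 of them with most genes, an order set after the values were seen, were largely made of gene clusters of other tissues. From 10 to 11 Mb of chromosome 12 lie 30 genes, among them the C-type lectin and killer lectin-like receptor genes KLRD1 and KLRK1 and bitter taste receptor genes. From 70 to 71 Mb of chromosome 4 lie saliva and enamel genes such as HTN1, MUC7 and ENAM. From 98 to 99 Mb of chromosome 3 lie olfactory receptors, and from 132 to 133 Mb of chromosome 6 trace amine receptors. The bin from 5 to 6 Mb of chromosome 9 holds JAK2 and CD274, which encode a cytokine-signalling kinase and the PD-L1 ligand. H3K27me3 was also at or near 0 in all 5, at most 0.321%.

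Peaks joined across gaps of up to 3 kb made 58917 domains with a median width of 1171 bp, of which 47.0% were single peaks. At least 100 kb was reached by 217 domains. They spanned 32.9 Mb, held 14.2% of the H2AK119ub bp, met 476 protein-coding genes and occurred on all 22 chromosomes, with 27 on chromosome 20 and 1 each on 4, 13, 18 and 21. H3K27me3 covered at least 50% of 162 of them and under 10% of 19. A KDM2B peak lay in 120 and an H3K4me3 peak in 186. A wider stretch meets more peaks of any list. Stretches of like width elsewhere were not compared, so these counts alone do not set the domains apart. The widest, chr16:866731-1267827, spanned 401 kb and held SOX8, the somatostatin receptor gene SSTR5, the T-type calcium channel gene CACNA1H and the mast cell tryptase genes TPSG1, TPSB2, TPSAB1 and TPSD1. The next was chr1:3049063-3445615 around PRDM16 (397 kb, H3K27me3 over 92.4%). The fourth, chr9:36734778-37064286, contained PAX5, the B cell factor (330 kb), and the fifth, chr17:79233751-79550308, lay within RBFOX3 (317 kb).

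Developmental transcription factor genes often had the mark, and the lists differed in how many members reached 50%. In each sentence the counts are to be read against the 58.5% of all genes with a peak and the 13.6% covered over at least 50%. Record length matters for the second share. HOX genes had a median length of 3.79 kb, and 28.4% of all records of 2 to 5 kb reached 50%. Other homeobox genes and keratins had medians of 6.63 and 6.43 kb, where 21.9% of all records of 5 to 10 kb did so. For WNT ligands and potassium channels, at medians of 29.3 and 40.6 kb, the share of all records of 20 to 50 kb was 9.20%. Of 39 HOX genes, which set position along the body axis, 35 had H2AK119ub and 8 (20.5%) were covered over at least 50%, a share below that of all records of their length. HOXD9 (90.8%), HOXB13 (90.3%), HOXD12 (82.2%) and HOXC12 (75.8%) led. The 4 clusters had like medians of 35.3% (A), 35.1% (B), 26.8% (C) and 29.2% (D), while their H3K27me3 medians were 5.45%, 0%, 22.1% and 29.3%. Of 106 other homeobox genes 93 had the mark and 43 (40.6%) reached 50%, led by EVX1 at 98.3%, DLX3 at 96.6%, LHX5 at 95.1% and NKX2-5 at 91.6%. All 9 PAX genes had it, with PAX2, PAX7 and PAX5 at 74.8%, 69.9% and 69.3% and no other at 50%. All 5 GATA genes had it, with GATA5 at 93.3%, GATA2 at 71.9% and no other at 50%. Forkhead genes had it in 38 of 49 and reached 50% in 14, with FOXJ1 of motile cilia and FOXS1 covered throughout. SOX genes had it in 15 of 18, and only SOX8 (92.4%), SOX14 (73.3%) and SOX15 (51.1%) reached 50%. T-box genes had it in 14 of 16, and only TBX10 (75.1%), TBX2 (67.7%) and TBX21 (61.8%) reached 50%. Neural bHLH genes had it in 16 of 20 and reached 50% in 7. NEUROD2 led at 93.5%, before NEUROG3 at 89.4% and NEUROG1, whose promoter is printed above, at 80.0%.

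Of all lists the WNT ligands had the highest share of members covered over at least 50%, 11 of 19, and 17 had the mark. WNT1 was at 90.3%, WNT7B at 84.3%, WNT11 at 80.1% and WNT10A at 71.5%. H3K27me3 covered 58.2%, 0%, 83.7% and 87.5% of these. H3K4me3 lay in 15 of the 19 genes, a share near the 77.1% of all genes. Their receptors, the Frizzled genes, had the mark in 7 of 10, and FZD9 alone reached 50% (64.1%). Keratins, the intermediate filaments of epithelia and hair, were covered over at least 50% in 29 of 55. They differed by cluster: 23 of 27 genes on chromosome 12 reached 50% and 6 of 28 on chromosome 17, with medians of 58.1% and 20.3%. On chromosome 17 KRT16 and KRT17 were nonetheless covered throughout, and KRT14 over 81.2%. Of 94 keratin-associated protein genes, 54 had no H2AK119ub and 31 were covered over at least 50%, with KRTAP10-1, KRTAP10-2, KRTAP10-6 and KRTAP10-12 covered throughout. Those genes are short and similar in sequence, and reads could be shared between them. Of all records of 2 kb or less, 44.1% had the mark and 27.2% reached 50%.

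Potassium channel genes had the mark in 79 of 94 and reached 50% in 33, with high shares in KCNK16 (90.3%), KCNH2 of the cardiac rapid current (87.5%) and KCNK17 (85.4%). GABA and glutamate receptor genes reached 50% in 7 of 43, led by GABRD (93.2%) and GRM4 (92.3%). Neuronal adhesion genes, with a median length of 1047 kb, had the mark in 26 of 36 and reached 50% in 2, DSCAML1 and CDH4. Collagen genes reached 50% in 12 of 42. COL7A1, the anchoring fibril collagen, was at 91.7% with no H3K27me3, and COL9A3 at 91.4% with H3K27me3 over 45.5%. COL6A1 was at 87.7% with no H3K27me3, and COL20A1 at 83.8% with H3K27me3 over 75.5%. Luminal and epithelial genes had the mark in 21 of 25 and reached 50% in 7, led by the secreted trefoil factor gene TFF3 (92.7%) and the epithelial regulators OVOL1 (87.9%), ELF3 (87.1%) and SPDEF (84.3%). Haematopoietic genes had it in 18 of 20, led by the B cell receptor genes CD79B (100%) and CD79A (86.8%). Hepatocyte genes had it in 10 of 17. Mesenchymal and basal genes had it in 8 of 17, and the highest was TGFBI at 19.7%.

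Large gene families of other tissues were not all covered. Of 391 olfactory receptor genes 137 had H2AK119ub and 37 reached 50%. Both shares were below those of all records of 2 kb or less, 44.1% and 27.2%. H3K27me3 covered at least 50% of 181 of the olfactory receptor genes. On chromosome 11, 66 of 171 olfactory receptors had H2AK119ub and the median H3K27me3 coverage was 61.2%, while on chromosome 1 the mark lay in 13 of 61 and the median H3K27me3 coverage was 0%. Clustered protocadherins had the mark in 40 of 53, and none exceeded 20.5%, the share of PCDHGC4. Zinc finger genes of chromosome 19 had it in 38 of 246 with none at 50%. A KDM2B peak lay in 90 of the 246, a share below the 50.3% of all genes. An H3K4me3 peak lay in 214, a share above the 77.1% of all genes. The replication-dependent histone genes had it in 3 of 69. H2AC25 (86.9%) and H2BC26 (83.3%) also had H3K27me3 throughout, and H2BC18 was at 6.82%.

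**Figure D4:**
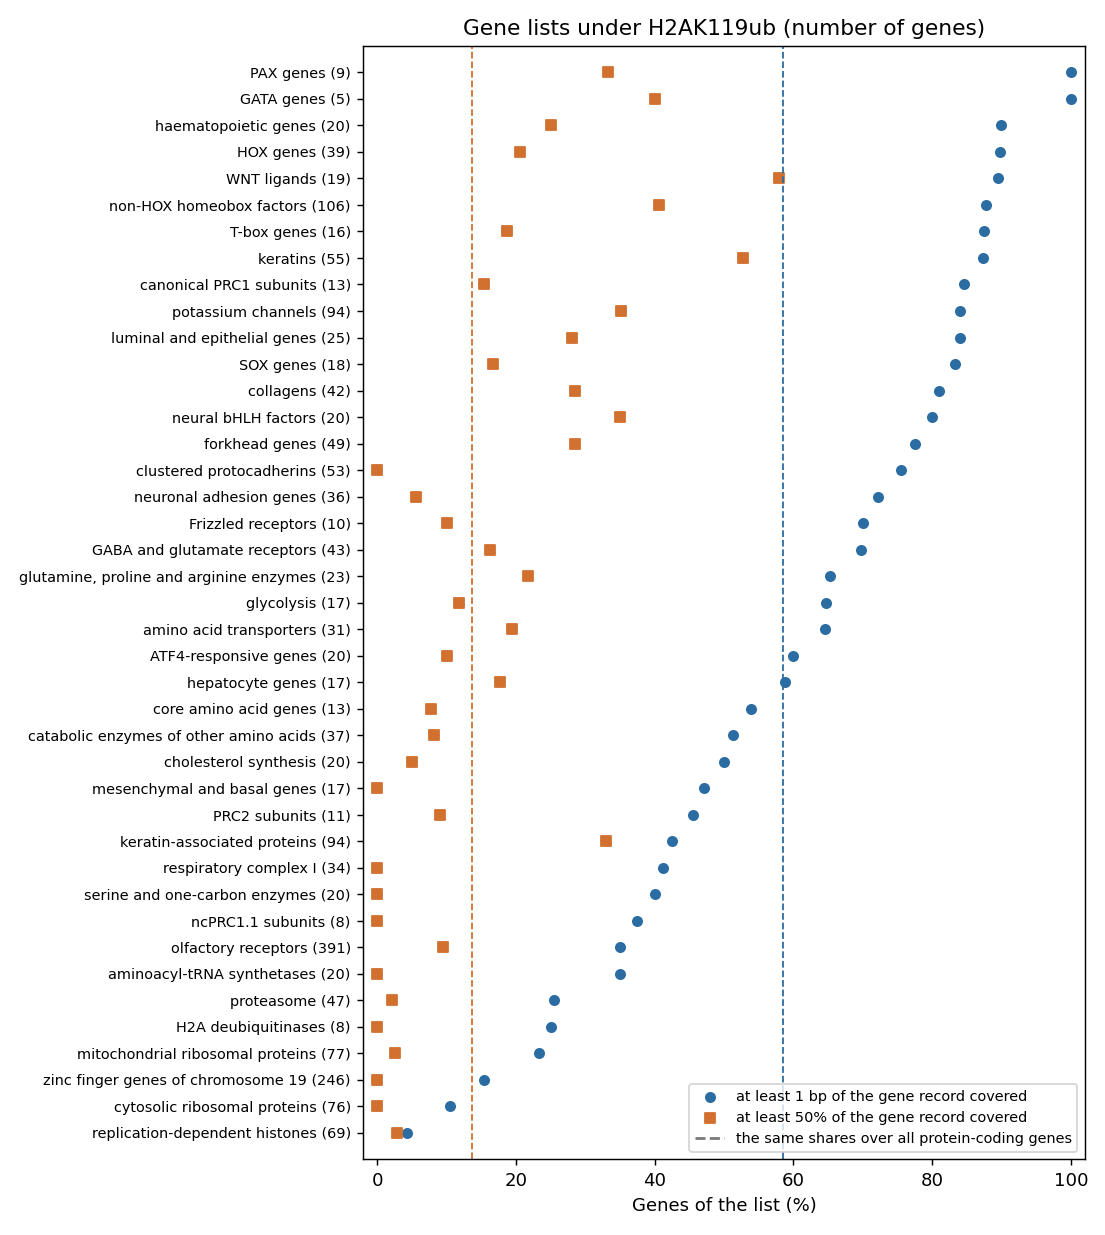
Share of each gene list (number of genes in brackets) with at least 1 bp of H2AK119ub (circles) and with at least 50% of the record covered (squares). Dashed lines give the shares over all 19126 protein-coding genes, 58.5% and 13.6%; PAX, GATA, HOX and WNT genes lie right of the line for any coverage, and ribosomal protein, histone and chromosome 19 zinc finger genes lie left of it.

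In lists of general cell functions the share of genes with the mark lay on either side of the 58.5% of all genes, and no difference between lists was tested. Cytosolic ribosomal protein genes had the mark in 8 of 76. The highest was RPL3L (48.4%), a paralogue of striated muscle, then RPS2 at 10.4%. Mitochondrial ribosomal protein genes had it in 18 of 77, with MRPL23 at 88.0% and MRPL28 at 64.8%. Proteasome genes had it in 12 of 47, and PSMB11 of the thymus was the only one past 50% (69.1%). Respiratory complex I genes had it in 14 of 34 and aminoacyl-tRNA synthetase genes in 7 of 20, with maxima of 47.3% (NDUFS7) and 21.3% (VARS1). Glycolysis genes had it in 11 of 17, led by PFKL (70.7%) and ALDOC (50.3%). Cholesterol synthesis genes had it in 10 of 20, led by MVD (56.9%). Apart from PSMB11 these lists had H3K4me3 in nearly all members, for example 75 of 76 cytosolic ribosomal protein and 17 of 17 glycolysis genes. Over all genes the share with H3K4me3 was 77.1%.

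Of the 13 genes at the centre of the study's amino acid question, 7 had H2AK119ub, a share near the 58.5% of all genes. All 13 had H3K4me3, against 77.1% of all genes. SLC7A5, the light chain and transport subunit of the LAT1 carrier of large neutral amino acids, was covered over 66.8% of its 39.5 kb by 23 peaks, with no H3K27me3, H3K27ac over 68.3% and 6 KDM2B peaks. PHGDH, the first enzyme of serine synthesis, was covered over 40.4% by 22 peaks, with H3K27me3 over 87.4%, H3K4me3 over 11.6% and H3K27ac over 5.82%. It was the only one of the 13 with more H3K27me3 than H2AK119ub by a wide margin. MYC (31.6%) and SHMT2, the mitochondrial serine hydroxymethyltransferase (30.3%), had 3 peaks each and H3K4me3 throughout. KDM2B itself carried 46 H2AK119ub peaks over 14.5% of its 174 kb. SLC1A5, a glutamine carrier, was at 6.38%, and ASNS, asparagine synthetase, at 1.85%. ATF4, MTHFD2, PSAT1, PSPH, SLC3A2 and SLC7A11 had none. SLC3A2, the heavy chain that pairs with SLC7A5, had 5 KDM2B peaks and H3K27ac over 56.9%.

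The wider amino acid lists lay on either side of the 58.5% of all genes with the mark. Serine and one-carbon enzymes had the mark in 8 of 20 with none at 50%. PHGDH led, before SDS, serine dehydratase of the liver (39.4%), ALDH1L1 (36.4%) and AMT of the glycine cleavage system (35.0%). Glutamine, proline and arginine enzymes had it in 15 of 23 and reached 50% in 5, with PRODH, which degrades proline, at 86.0% and PYCR1, which makes it, at 81.0%. H3K27me3 covered 77.5% of PRODH and none of PYCR1. GPT (79.4%) and PYCR3 (67.5%), both on chromosome 8, had no H3K27me3. Enzymes that degrade other amino acids had it in 19 of 37, led by FTCD (65.6%), UROC1 (55.6%) and MAT1A (50.3%), enzymes of histidine and methionine use in liver. Amino acid transporters had it in 20 of 31, led by SLC7A10 (97.4%), SLC6A19, SLC38A3 (89.1%) and SLC7A5. The first 3 had H3K27me3 over 86.9%, 77.1% and 90.2%. ATF4-responsive genes had it in 12 of 20, led by the hormone gene FGF21 (95.7%, within 1 peak), VEGFA (53.5%) and DDIT4 (40.2%), none with H3K27me3.

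In lists of Polycomb machinery genes, some of which share members, the share with the mark lay on either side of the 58.5% of all genes. It was above it for canonical PRC1 and below it for the other lists, and no difference was tested. Canonical PRC1 subunit genes had the mark in 11 of 13, led by CBX2 (69.2%), with CBX7 at 43.0% and CBX8 at 34.3%. None of these 3 had H3K27me3, and each had H3K4me3. PHC3 and RNF2, a catalytic subunit, had none. The autosomal ncPRC1.1 subunit genes had it in 3 of 8: RING1 (23.05%), KDM2B and USP7 (0.912%). PRC2 subunit genes had it in 5 of 11, led by EPOP (85.6%) and PHF1 (40.4%), while EZH2, EED and SUZ12, named as the PRC2 core, had none. Of 8 H2A deubiquitinase genes BAP1 (18.3%) and USP22 (1.38%) had it.

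Promoter windows could be matched for 15101 of the 19126 genes, and an H2AK119ub peak met 2681 of them (17.8%, interval 17.2% to 18.4%). Of the matched genes with H2AK119ub in the body, 5992 (69.4%) lacked it at the promoter. Windows with an H3K4me3 peak had H2AK119ub in 8.70%, and windows without H3K4me3 in 37.2%. With both H3K4me3 and H3K27ac the share was 4.29% (interval 3.90% to 4.73%), and with H3K4me3 but no H3K27ac it was 43.8% (41.0% to 46.7%). Windows with a KDM2B peak had H2AK119ub in 7.001%, and windows with H3K4me3 and no KDM2B in 10.3%. Windows with H3K27me3 had it in 65.9%.

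The share depended on CpG content in a different way with and without H3K4me3. CpG was counted as the letters CG in the 300 bases, which reads the same on both strands, and 98.1% of all windows held at least 1. Over all windows it was 21.6% at 0 to 4 CpG, 40.5% at 5 to 9, 28.6% at 10 to 14 and 6.60% at 45 or more. Windows without H3K4me3 had H2AK119ub in 21.5% at 0 to 4 CpG, in 50.7% at 5 to 9, in 60.2% at 25 to 29 (interval 53.8% to 66.2%) and in 5.43% at 45 or more (n = 92). Windows with H3K4me3 fell from 23.6% at 5 to 9 CpG to 5.70% at 20 to 24 and were at 6.77% at 45 or more. The printed windows of NEUROG1 and KRT71 belong to the first kind and those of WNT1 and GATA2 to the second.

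Around the gene start the 2 kinds also differed in shape. In the 2391 genes of at least 10 kb without H3K4me3 in the window, mean coverage was 22.2% in the kb before the start, 26.7% in the first kb of the gene, 16.1% in the sixth and 11.5% from 6 to 5 kb upstream. In the 7008 genes with H3K4me3 it was lowest in the kb before the start, 5.22%, with 8.22% in the first kb and 9.03% at 20 to 19 kb upstream. Along the body of these genes coverage went from 7.31% of the first of 20 parts to 12.4% of the 19th. In genes without H3K4me3 it went from 23.3% of the first part to 16.2% of the 11th and 18.6% of the 19th.

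**Figure D5:**
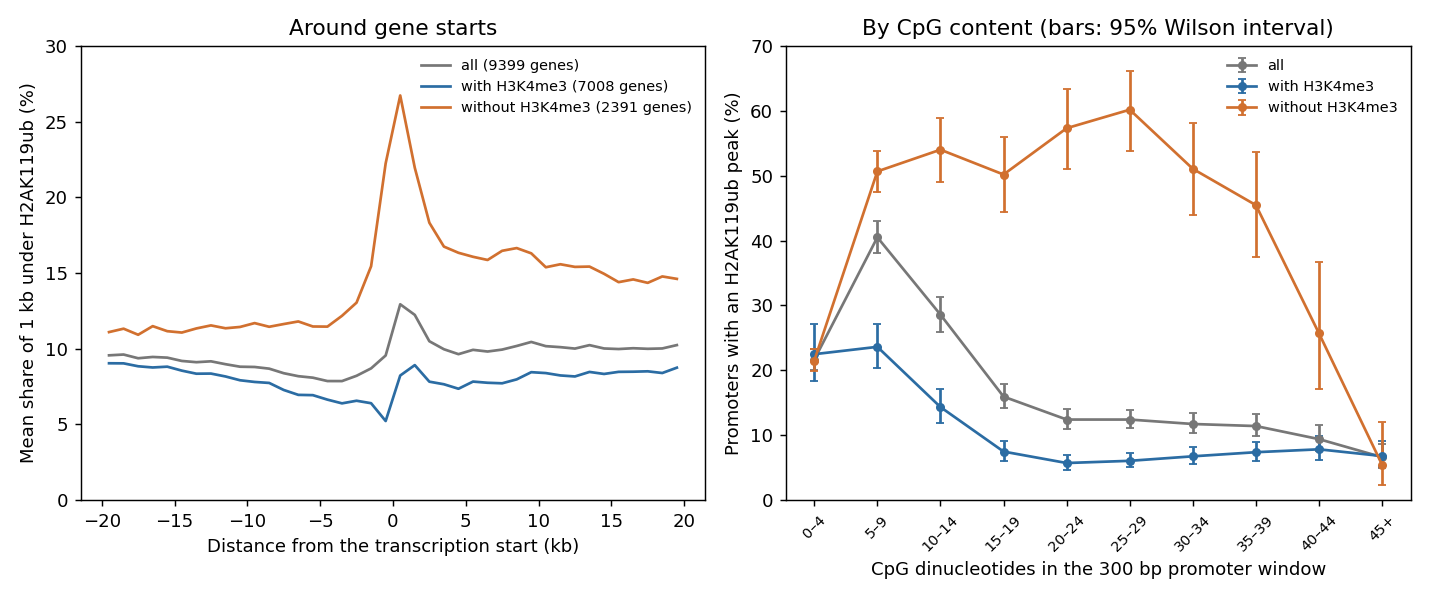
Left: mean share of each kb under H2AK119ub from 20 kb before to 20 kb after the gene start, for genes of at least 10 kb with and without an H3K4me3 peak in the promoter window; the line without H3K4me3 peaks at 26.7% and the line with H3K4me3 dips to 5.22%. Right: percent of promoter windows met by an H2AK119ub peak by the number of CpG in the window, with 95% Wilson intervals.

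Among other gene records, H2AK119ub met 41.2% of 17795 long noncoding RNA genes, 15.5% of pseudogenes, 7.52% of tRNA genes and 3.83% of snoRNA genes. It met 419 of 1793 miRNA genes (23.4%). The miR-200 family, which holds epithelial identity by repressing ZEB1 and ZEB2, has 2 gene clusters, and the list separated them. The mature sequences (RefSeq, GRCh38.p14) are shown, seed in capitals, because both clusters encode both of the family's seeds. These and the following miRNAs were chosen after their values were seen.
hsa-miR-200b-3p: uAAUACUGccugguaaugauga
hsa-miR-429: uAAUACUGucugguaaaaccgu
hsa-miR-200c-3p: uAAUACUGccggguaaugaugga
hsa-miR-200a-3p: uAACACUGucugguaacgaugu
hsa-miR-141-3p: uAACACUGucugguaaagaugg
The seed AAUACUG is shared by miR-200b, miR-429 and miR-200c, and AACACUG by miR-200a and miR-141. MIR200B, MIR200A and MIR429 on chromosome 1 lay within a single H2AK119ub peak of 6.04 kb at chr1:1166670-1172710, with a fold of 3.83. None of the 3 records had H3K27me3, although 4 H3K27me3 peaks met the H2AK119ub peak, and MIR200B had H3K4me3 throughout. MIR200C and MIR141 on chromosome 12 had no H2AK119ub and H3K4me3 throughout. The lists do not give the RNA, so the levels of these miRNAs are not known here.

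Other tissue-restricted miRNA genes were split. MIR9-1 and MIR9-3 of the nervous system, MIR375 of endocrine cells and MIR196A2 of the HOXC cluster were fully covered by both H2AK119ub and H3K27me3. The epithelial MIR203A, MIR196B and the neuronal MIR124-3 were fully covered by H2AK119ub, with H3K27me3 over 0%, 0% and 12.6%. MIR124-1 was covered over 38.8%. MIR9-2, MIR124-2, MIR10A, MIR10B, MIR196A1 and MIR205 had none. The widely expressed MIR21, MIR17 and MIRLET7A1 and the lymphoid MIR155 had none either.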

How the data were processed

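H2AK119ub ChIP-seq of 2 parental MDA-MB-231 libraries was available as 1 joint narrow-peak list. Chromatin was cut by enzymatic digestion and 50 ng of DNA entered each H2AK119ub library, per the labels' protocols. The genome build was hg38 and the software comprised MACS2 2.2.7.1, Bowtie2 2.4.5, Trim Galore and SAMtools 1.6, per the submitters' processing notes. The version of Trim Galore, the control and any pooling are not given in the sources used here. Each deposited peak has a score, which is 10 times its −log10 q with the decimals dropped in nearly all peaks. It also has the authors' fold (a ratio over background) and, as deposited, a −log10 q-value and an unused −log10 p-value. The highest q-value was 0.0498. The deposited summit offset was not used. A narrow-peak caller and enzymatic digestion can split broad domains into many peaks.

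Gene positions, promoter windows and miRNAs came from RefSeq (GRCh38.p14). Covered bp were counted per gene record, 1 Mb bin (genes placed by their midpoint) and chromosome with Python 3.11.15, pandas 2.3.3 and SciPy 1.17.1. The interval arithmetic was tested on simulated data. A chromosome's span was its last coordinate in any list or gene record. Bins with no peak of any list (109 of 2886) were left out. Overlap meant at least 1 bp. Depth is unknown, which limits the precision to what the peak calls give. Named genes are the 13 core genes, up to 4 members of each list with the highest covered share, the 10 genes with most covered bp, the 10 of at least 20 kb with the highest share, those of the 5 widest domains, members of counts of 5 or fewer and examples from the 5 most and 5 least covered bins. Other genes, such as those under the widest and highest peaks, the H3K27me3-poor genes with most covered bp and members without peaks, were named after their values were seen. The members, lists and rules were chosen with earlier results of these data known. Some items that these rules name are not reported here. Alternatives varied the q and fold thresholds, merging of peaks, gene records, bins, gaps and overlap.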

Additional observations from a re-analysis of the deposited data

Results flagged for a closer look

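Chromosome X lay outside the comparisons, and the list held 1431 H2AK119ub peaks there. They covered 0.707 Mb, or 0.453% of its 156 Mb, which is below the share of every autosome, at 5.43 genes per Mb. Their median width was 334 bp. H3K27me3 covered 3.08% of chromosome X, H3K4me3 1.59% and H3K27ac 1.55%. The lists do not give the number of copies of this chromosome, and its part in these values was not tested.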

How the results depend on the processing

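Chromosome 4 was the least covered in every setting run, and chromosome 20 the most covered in all but one. With peaks merged across gaps of up to 3 kb, chromosome 19 was highest. With only peaks of q under 1e-05 (and, in brackets, the 50% of peaks with the highest fold) 107 Mb (119.2 Mb) were covered and the median width was 817 bp (601 bp). Genes with a peak were 39.6% (47.2%) and genes covered over at least 50% were 9.46% (9.70%). Across bins, the rank correlation of coverage with gene density was 0.61 (0.63), the median of the 10% densest bins 10.1% (10.8%) against 16.2% with all peaks, and that of the 25% sparsest 0% (0%) against 0.0306%. The highest and lowest chromosomes had 12.9% (12.4%) and 0.466% (0.648%), and domains of at least 100 kb were 50 (59) in place of 217. Merging peaks across 3 kb gave 311 Mb, a median width of 1171 bp, 26.3% of genes covered over at least 50%, a rank correlation of 0.63, 31.6% in the densest bins, and 31.7% and 1.83% for the highest and lowest chromosome. It is also how domains were made, so their number has no separate value. Stitching gaps of 1 and 5 kb gave 14 and 492 domains. Records with 1 kb on each side gave 60.2% and 12.2% of genes, and records of at least 5 kb 11.04% covered over at least 50%. For bins of 500 kb, of 2 Mb, all bins, and density of all gene records, that correlation was 0.55, 0.69, 0.66 and 0.66. The densest bins were at 14.9%, 17.7%, 16.1% and 15.3%, and the sparsest at 0.0652%, 0.0499%, 0.0196% and 0.0322%. H3K27me3 met 64.2% of H2AK119ub peaks by at least 1 bp and 61.0% over at least 50% of the peak. Fewer or wider peaks follow from how these settings are built, and the cause of the other moves was not tested. No paired analysis was possible because each target has 1 list for both libraries, and no library could be left out for the same reason.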
